A study of Mus musculus with 20 samples.

Results

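The 10 genes described here are Atf4 and 9 genes of the amino acid response that Atf4 is known to switch on: Ddit3, Trib3, Ddit4, Sesn2, Chac1, Asns, Phgdh, Psat1 and Shmt2. They were picked by name, and every accessible element within 10 kb of their GRCm38 gene spans was taken. That gave 48 of the 101352 elements of the whole series, at 9 of the 10 genes. An element is a stretch covered by the merged peaks of all 20 deposited peak lists, and it is called in a library when that library has a peak there. Elements are numbered e1, e2 and so on along each gene in its direction of transcription.

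Chromatin accessibility was measured by ATAC-seq, in which a transposase cuts open DNA, in C2C12, an established mouse myoblast line. Cells were wild type (WT) or knocked out for Setd2 (KO), the gene of the enzyme that trimethylates lysine 36 of histone H3. Libraries were made at D0, with no medium named, and on both D1 and D5 with control (CTL) and with methionine-restricted (MR) cultures, which makes 10 groups of 2 libraries. The 2 WT libraries of a group are numbered replicates, and the 2 KO libraries come from 2 knockout lines, each with 1 library per condition, so the KO spread includes the difference between lines.

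When a cell runs short of an amino acid, the kinase Gcn2 phosphorylates the initiation factor eIF2alpha, general translation slows, and Atf4 messenger RNA is translated more. Atf4 pairs with C/EBP family proteins and binds composite sites, called C/EBP-ATF response elements or amino acid response elements, at genes that make, import or spare amino acids. Serine synthesis through Phgdh and Psat1, and the folate step of Shmt2, feed the carbon units that rebuild methionine. Atf4 itself is known to be controlled largely at translation.

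The sequences below show where the core letters of such a site lie in relation to the peaks. The core TGATGNAA was searched on both strands in the RefSeq promoter windows (GRCm38.p6), which run from 250 bases before the start to 50 bases after it, and all 10 genes were matched. It was found in 3 of the 10 genes, Asns, Chac1 and Trib3, and in 4.51% of all 27025 genes with a window. In the Asns promoter, printed for its 250 upstream bases on the minus strand (chr6:7693210-7693459), the core in capitals lies 23 to 16 bases before the start, and 158 of the printed bases lie inside the Asns element.

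Asns: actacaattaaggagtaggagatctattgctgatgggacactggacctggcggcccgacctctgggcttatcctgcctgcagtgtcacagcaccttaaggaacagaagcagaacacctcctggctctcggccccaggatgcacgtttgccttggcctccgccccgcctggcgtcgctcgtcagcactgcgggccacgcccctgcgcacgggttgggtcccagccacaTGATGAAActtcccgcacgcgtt

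In the Chac1 promoter (chr2:119350992-119351241, plus strand) the core in capitals reads in the opposite direction, and all 250 printed bases lie inside the element called there.

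Chac1: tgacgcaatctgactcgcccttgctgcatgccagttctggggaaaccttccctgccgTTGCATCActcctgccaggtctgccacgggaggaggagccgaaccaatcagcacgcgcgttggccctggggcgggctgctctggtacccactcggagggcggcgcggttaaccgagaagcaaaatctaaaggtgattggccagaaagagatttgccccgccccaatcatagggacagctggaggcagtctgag

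In Trib3 the core lies 14 to 21 bases after the start, so only the match and its 10 flanking bases on each side are shown (chr2:152344029-152344056, minus strand). The match lies inside the element at the Trib3 start.

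Trib3: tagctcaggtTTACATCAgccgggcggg

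The full cyclic AMP response element TGACGTCA, searched in the same windows, was in 0 of the 10 genes and in 2.03% of all genes. A match is a description of letters and says nothing of whether Atf4 was bound.

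The peak lists of 18 libraries held 20847 to 69881 peaks, and the 2 D5 libraries of KO line 1 held 644 and 1881 peaks. Depth was estimated from the peak values of each list as its background pileup, under assumed formulas for fold enrichment and p-value. This stands for the average number of fragments over a position. It was 1.42 to 5.88 in the 18 libraries and 0.101 to 0.128 in the other 2. Those 2 were left out of the tests. KO at D5 therefore rests on line 2 alone. As a check of the labelled cell type, the muscle genes Des, Cdh15 and Chrna1 had a called element within 1 kb of a gene end in all 18 libraries and Myod1 in 17. Of the other muscle genes on the list, Tnnt3 was called there in 17 libraries, Mymk in 14, Acta1 in 9, Myog in 8 and Ckm in 5. Myf5 had none in any. Of 12 marker genes of other cell types, 8 were never called. Pparg was called in 17 libraries, Krt8 in 10 and Sox2 in 5.

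Most of the response genes had a called element at their start in each of the 18 libraries, and Atf4 had no element at all. An element holding the transcription start was called in all 18 libraries for 6 of the 10 genes, namely Ddit3, Trib3, Ddit4, Sesn2, Chac1 and Psat1. Of 17274 genes with a strand in the reference, 22.2% had such a start. The starts of Atf4 and Shmt2 lay in no element of any list, as did 57.8% of starts, although Shmt2 e3 had an edge 17 bases from the Shmt2 start. A start without a peak is not thereby shown to be closed. No peak of any of the 20 lists lay within 10 kb of Atf4 (chr15:80255184-80257545), and the same held for 22.6% of 21631 protein-coding genes, whose median was 3 elements.

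The number of elements per gene ran from 1 at Asns, 2 at Phgdh, and 3 at both Sesn2 and Psat1 to 6 at Ddit3, 7 at Chac1, 8 at both Trib3 and Shmt2, and 10 at Ddit4. Of the 48 elements, 15 were within 1 kb of the start of their gene, 6 within 1 kb of its end, 3 elsewhere in the gene body and 24 in the flanks. In all, 9 of them (18.8%) were called in each of the 18 libraries, against 11% of all elements, and 7 (14.6%) were called in only 1, against 20.4%. Neighbouring genes share some of these windows. For example, 11 elements overlap another gene, and 6 lie within 1 kb of the start or the end of another gene. Mbd6 and Mars1 beside Ddit3 and Rbck1 beside Trib3 are such neighbours.

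**Figure D1:**
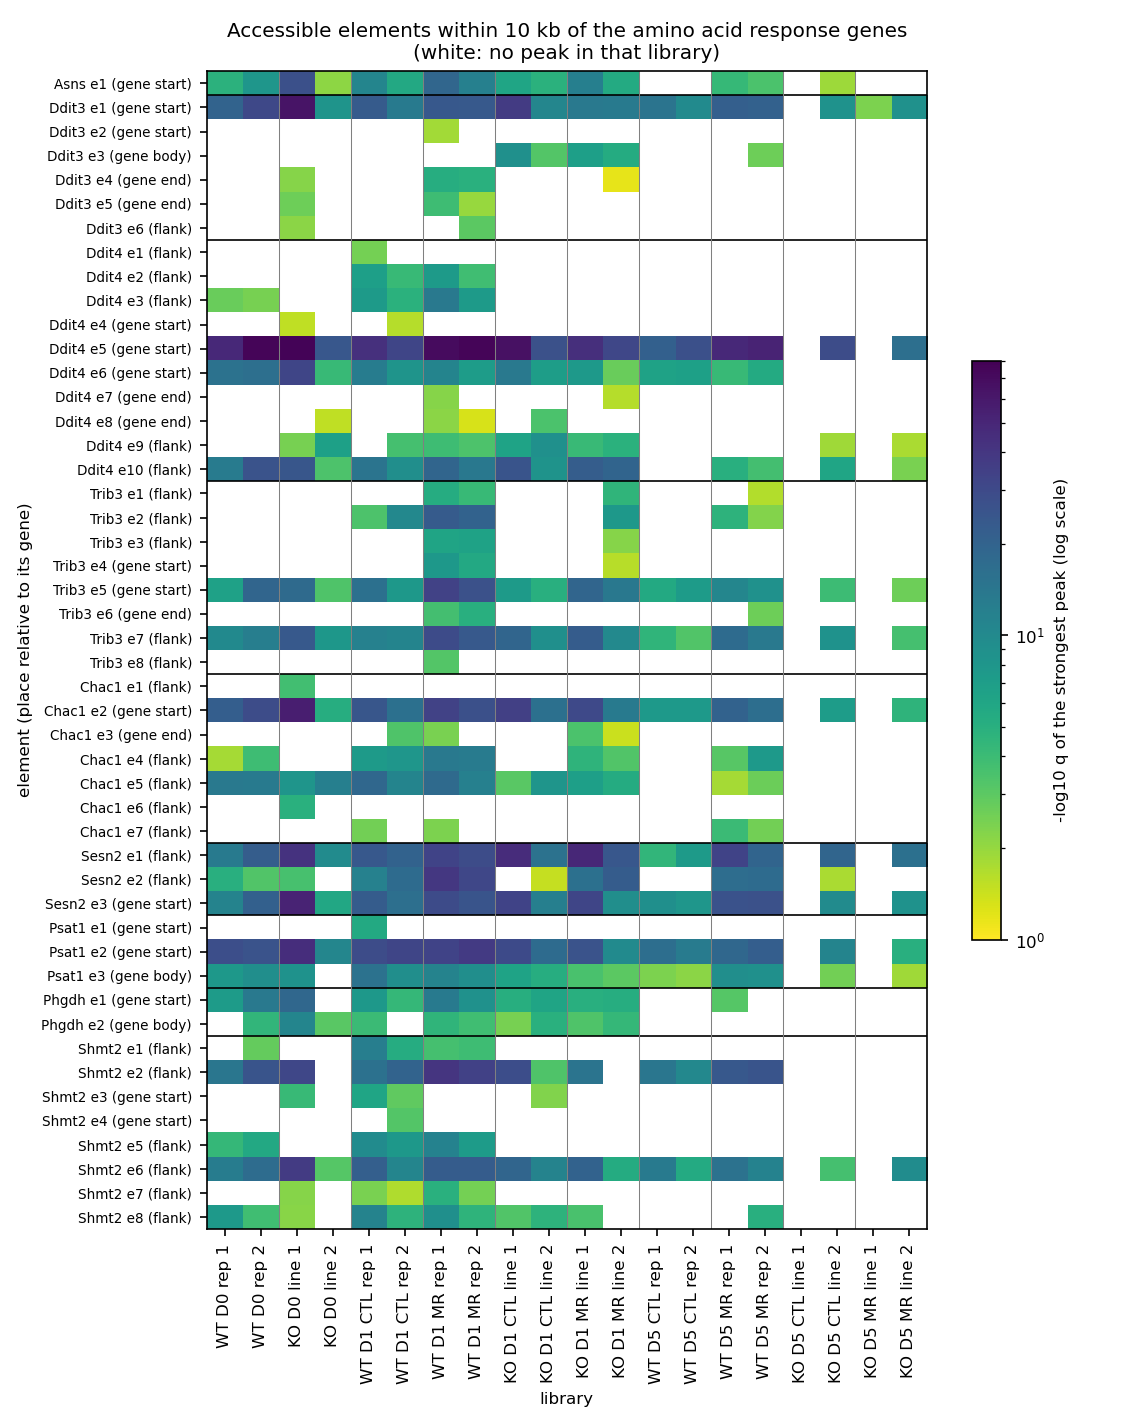
Each row is 1 of the 48 elements with its place relative to its gene, and each column is 1 of the 20 libraries. Colour gives the −log10 q-value of the strongest peak on a log scale, and white means no peak. The elements at the starts of Ddit3, Ddit4, Trib3, Chac1, Sesn2 and Psat1 are filled in all 18 libraries of usual depth.

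The tests compared the strength of a peak between libraries through its shared rank. This is the percentile of its −log10 q-value among the 11144 elements called in all 18 libraries, so that the length of a list does not enter. The deposited −log10 q-values themselves are the authors' and describe a peak within its own list. They are given for elements outside that set to show how strong a called peak was, and no change between libraries is read from them. Across the whole genome 3 measures were tested, the calls of elements, the shared ranks, and the number of called elements within 10 kb of a gene. Each used an exact two-sided permutation test within strata with Benjamini-Hochberg adjustment, and an adjusted p at or under 0.05 passed. Groups of 2 libraries alone cannot be tested and are described. Nothing in the labels says that WT replicates came from separate cultures, so p-values measure the spread between these libraries, which may be technical. In such bulk libraries, fewer cells with an open element and less opening per cell cannot be told apart.

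At D1 both WT libraries under methionine restriction had more called elements around Trib3 than either CTL library, and the Trib3 start ranked higher in MR than in CTL in both genotypes. These groups of 2 are described and not tested. No gene of the 10 passed the test of restriction over all days and genotypes. For calls, 0 of the 48 elements could be tested, since none had calls that allow a p of 0.05. For shared ranks 0 of 9 elements passed, and for element numbers 0 of the 3 testable genes passed. The background for all 3 measures was 0%, that is 0 of 2611 elements by calls, 0 of 11144 by rank and 0 of 6806 genes. At an unadjusted p under 0.05 the shares over the genome were 10.2%, 19.6% and 2.25%, and among the response genes 1 of 9 ranks (Psat1 e2) and 2 of 3 numbers (Trib3 and Chac1) were there. With 432 arrangements the smallest possible p was 0.00463, so an adjusted p of 0.05 would need 9.26% of all features at that smallest p, and a restriction effect on a few genes could not pass.

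Trib3 encodes a pseudokinase that binds Atf4 and Ddit3 and restrains Akt signalling. Its number of called elements was 2 and 2 in WT at D0, 3 and 3 in WT D1 CTL, and 8 and 7 in WT D1 MR. In KO D1 it was 2 and 2 in CTL, and 2 in line 1 and 6 in line 2 in MR. At D5 it was 2 and 2 in WT CTL, 3 and 5 in WT MR, and 2 in KO line 2 in either medium. The WT D1 MR libraries thus stood above all 16 others, the next being KO line 2 in D1 MR, while KO line 1 in MR equalled its CTL library. Over all strata the number was 2.12 higher under restriction (exact stratified permutation p = 0.0278, adjusted p = 1). At D1 in WT, 0.442% of 16746 genes with an element gained 4 or more elements in each MR library over either CTL library, as Trib3 did. The cutoff of 4 is the smallest gain seen at Trib3 itself. The share is taken over all genes with an element, including those with fewer than 4 elements, which cannot reach it.

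The 4 Trib3 elements called in both WT D1 MR libraries and in neither WT D1 CTL library were e1, e3, e4 and e6. The upstream cluster spans e1 to e3 (chr2:152349121-152350950), whose near edges lie 5061 to 6721 bases before the start. Its middle element e2 had −log10 q-values of 3.38 and 10.3 in WT D1 CTL and of 22.9 and 20.2 in WT D1 MR. In KO it was called in D1 MR line 2 alone, at 7.74, and at D5 in both WT MR libraries, at 4.69 and 2.24, and in neither WT CTL library. At e4, which lies 409 bases before the start, the values were 7.67 and 5.66 in WT D1 MR and 1.59 in KO MR line 2, and no other library had a peak. The 2 outer elements of the cluster were weaker, at 5.33 and 4.21 for e1 and at 6.22 and 6.43 for e3 in WT D1 MR. The gene-end element e6 was at 3.69 and 5.03 in WT D1 MR and at 2.63 in WT D5 MR replicate 2. These were weak peaks: e3 and e4 alone stayed gained among peaks with a −log10 q of at least 5, and none did among the 20000 strongest peaks of each list.

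**Figure D2:**
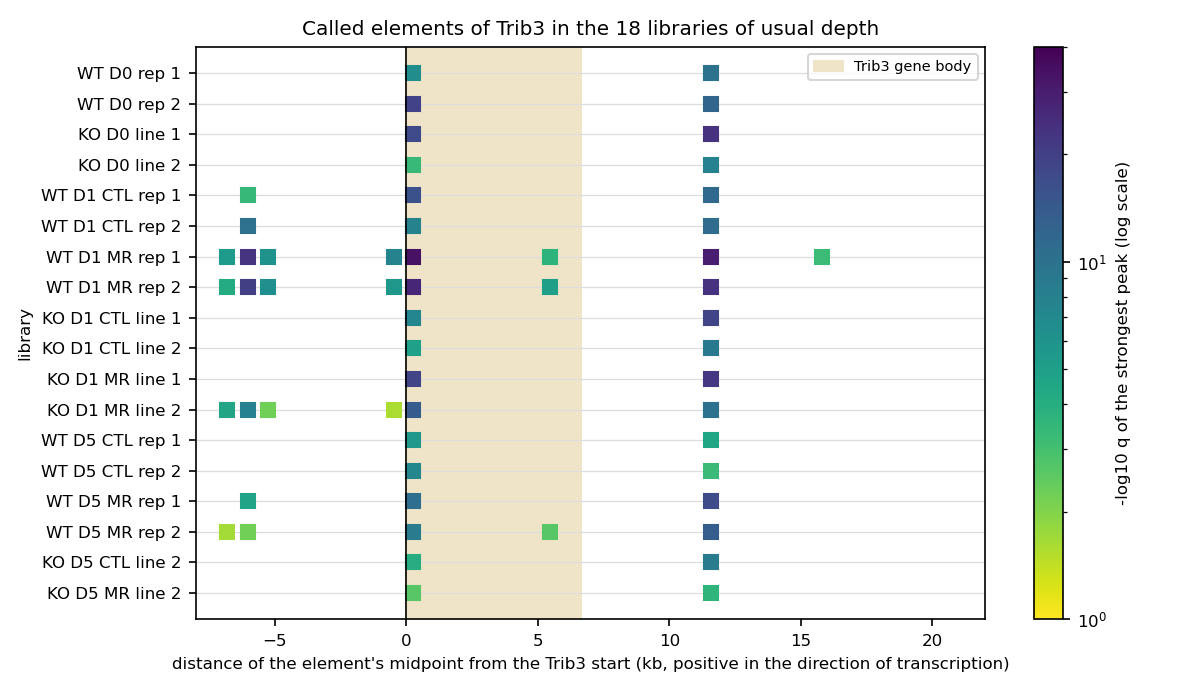
Squares mark the called Trib3 elements by the distance of their midpoint from the start, in kb along the direction of transcription, with 1 row for each of the 18 libraries of usual depth. Colour gives the −log10 q-value on a log scale, and the shaded span is the gene body. The WT D1 MR libraries have 8 and 7 elements, and the element at the start is present in every row.

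The Trib3 start element e5 (chr2:152343483-152344158), the one that holds the core match, was called in all 18 libraries. Its shared rank was 29.1 and 13.2 in WT D1 CTL and 51.6 and 49.4 in WT D1 MR. In KO D1 it was 1.36 and 3.65 in CTL and 32.2 and 54 in MR. At D5 the order in WT was the other way, with 32.9 and 49.8 in CTL and 21.2 and 17.6 in MR. KO line 2 at D5 had 12.6 in CTL and 12.4 in MR. So MR lay above CTL without overlap at D1 in both genotypes, below it at D5 in WT, and level with it in the KO line at D5. The mean difference over the 4 strata was 12 percentile points (exact stratified permutation p = 0.176, adjusted p = 0.447), which does not show that the rank is unaffected.

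To describe D1 with more elements, ranks were also taken among the 23024 elements called in all 8 D1 libraries, a choice made after the first results were seen. There the Trib3 start stood at 51 and 34.7 in WT CTL and at 70.8 and 69.9 in WT MR, a difference of 27.6 that 4.17% of elements equalled or exceeded. In KO it went from 10.3 to 56.4 in line 1 and from 16.1 to 74.3 in line 2, a difference of 52.2 that 0.0391% of elements equalled or exceeded. MR ranks stood above CTL without overlap in both genotypes for Trib3 e5 and e7, out of 15 elements of the response genes in this set. Among all 23024 elements 7.49% did so. Trib3 e7 overlaps the neighbour Rbck1 and lies within 1 kb of the start or the end of that gene. In WT alone 30.4% of elements were higher and 29.4% lower in MR without overlap, and in KO alone 15.1% and 13.4%. Ranking by fold enrichment or against the median of chromosome 2 kept both differences at the Trib3 start positive.

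**Figure D3:**
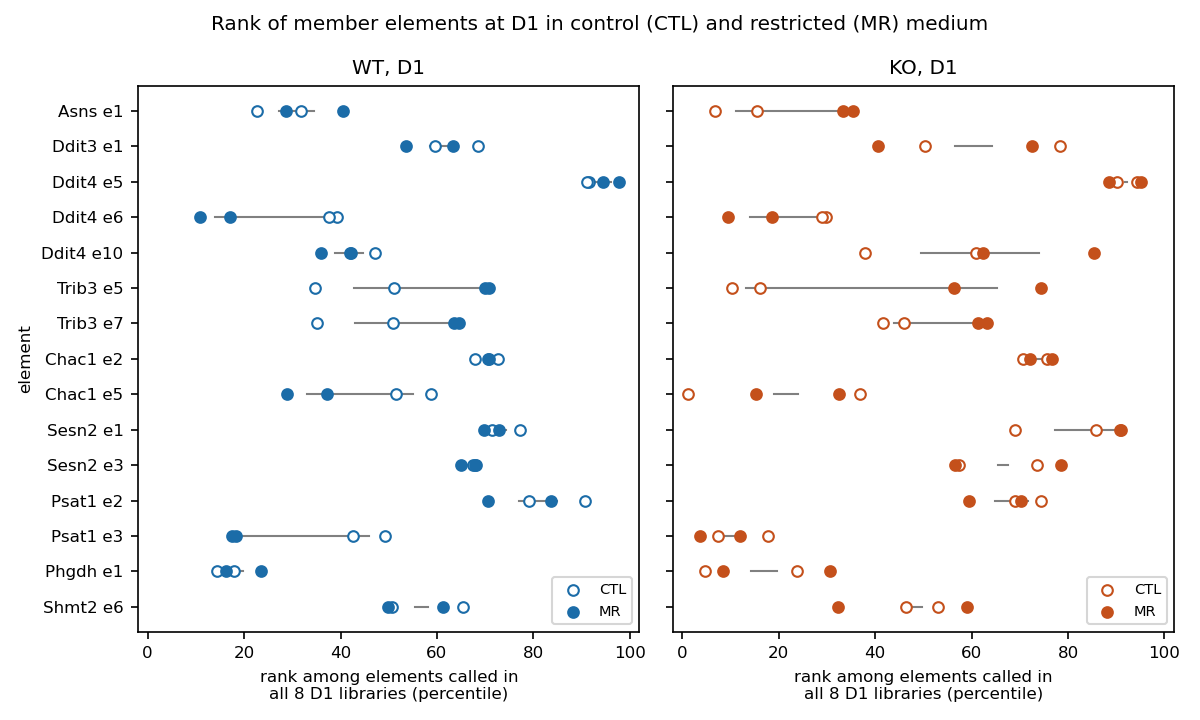
Rows are the 15 elements of the response genes called in all 8 D1 libraries, and the horizontal axis is the percentile rank among the 23024 elements of that set. Open points are CTL libraries, filled points MR libraries, and the grey line joins the group means, for WT at left and KO at right. The longest line is that of Trib3 e5 in KO, with a difference of 52.2.

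Asns makes asparagine from aspartate and is the classic amino acid response gene. Its only element, e1 at the start (chr6:7692920-7693367), holds the core match and was called in 15 of the 18 libraries. In the D1 ranks it stood at 6.86 and 15.4 in KO CTL and at 35.4 and 33.4 in KO MR. That difference of 23.3 was equalled or exceeded by 4.77% of elements, and the groups did not overlap. In WT the D1 ranks overlapped, at 31.8 and 22.6 in CTL and 40.5 and 28.6 in MR. At D5 the element was absent from both WT CTL lists and called in both WT MR lists, with −log10 q-values of 4.27 and 3.49. In that comparison 27.9% of all elements were gained in the same way. With the 20000 strongest peaks of each list, the Asns element was not gained there. KO line 2 at D5 had it in CTL at 1.91 and not in MR.

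Chac1, an enzyme that degrades glutathione, had overlapping ranks at its start (e2) in the 2 media, at 56 and 47.4 in WT D1 CTL, 51.4 and 50.3 in WT D1 MR, 56.1 and 51.9 in KO D1 CTL, and 57.9 and 51 in KO D1 MR. The WT D5 groups overlapped too, at 49.2 and 52.1 in CTL and 54.8 and 49.9 in MR. Beyond the gene end, e3 and e4 were called in both KO D1 MR libraries and in neither KO D1 CTL library, with −log10 q-values of 3.43 and 1.42 at e3 and of 4.62 and 3.31 at e4. WT had e4 in both media at D1, at 7.37 and 8 in CTL and 13.7 and 13 in MR. At D5 the WT MR libraries alone had e4 (3.11 and 7.58), e5 (1.79 and 2.68) and e7 (4.05 and 2.54). In the D1 ranks e5 went the other way in WT, from 58.8 and 51.4 in CTL to 37.1 and 28.8 in MR. Chac1 elements were 1.25 more numerous under restriction over the 4 strata (exact stratified permutation p = 0.037, adjusted p = 1).

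Sesn2 and Ddit4 encode inhibitors of the growth kinase complex mTORC1, Sesn2 as a leucine sensor. The upstream element Sesn2 e2 (chr4:132513559-132514172) was absent from both WT D5 CTL lists and had −log10 q-values of 16.7 and 17.2 in WT D5 MR. At D1 it was at 11.7 and 17.2 in WT CTL and 39.3 and 31.4 in WT MR. In KO D1 it was absent from line 1 and at 1.48 in line 2 in CTL, and at 15.8 and 22.3 in MR. In KO line 2 at D5 it was called at 1.76 in CTL and absent in MR. By fold enrichment the media overlapped in WT at D1, at 5.68 and 7.14 in CTL and 6.79 and 6.43 in MR. The start of Ddit4 (e5) was among the strongest elements, with shared ranks of 77.5 to 97.6 over the 18 libraries. At D1 in WT it ranked higher in MR, at 89 and 95.3 against 84.8 and 83.5 in CTL, and in the other 2 pairs of groups the media overlapped. Downstream of it, Ddit4 e6 ranked lower in MR than CTL at D1 without overlap in both genotypes, from 39.3 and 37.6 to 17 and 10.8 in WT and from 29.8 and 28.9 to 18.5 and 9.57 in KO, as 6.12% of elements did. Farther downstream, Ddit4 e10 ranked higher in MR in KO at D1, from 61 to 62.4 in line 1 and from 37.9 to 85.4 in line 2. The rise was thus 47.5 in line 2 and only 1.46 in line 1. In WT at D1 e10 ranked lower in MR, from 47.1 and 42.1 to 41.9 and 36. Of all D1 elements, 15.1% were higher in KO and 29.4% lower in WT in this way. At D5 in WT it was called in MR alone, at a −log10 q of 5.05 and 3.7. The gene-end element e8 was called in both WT D1 MR libraries, at 2.14 and 1.31, and in neither CTL library.

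Ddit3 encodes the stress transcription factor CHOP. Its start element e1, which reaches into the neighbour Mbd6, had overlapping ranks in the 2 media at D1 in both genotypes, at 50.4 and 37 in WT CTL, 31.1 and 41 in WT MR, 60.3 and 27.8 in KO CTL, and 17.4 and 51.4 in KO MR. At its far end, e4 and e5 were called in both WT D1 MR libraries and in neither CTL library, with −log10 q-values of 5.24 and 4.98 at e4 and of 3.93 and 1.97 at e5. Both overlap Mars1, the methionyl-tRNA synthetase gene, which has an end there, so the elements cannot be assigned to either gene.

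Phgdh, Psat1 and Shmt2, the serine and glycine enzymes, had no element gained under restriction in a pair of groups with all peaks. With peaks of a −log10 q of at least 5, Psat1 e3 was gained in WT at D5, and with peaks covering 50% of an element Psat1 e2 and Shmt2 e2 were gained there. The start of Psat1 (e2, chr19:15924141-15925241) had a lower mean rank under restriction in each of the 4 strata. Its shared ranks were 65.1 and 82.9 in WT D1 CTL and 51.2 and 69.9 in MR, 46.4 and 57 in KO D1 CTL and 48.9 and 34.8 in MR, 86.3 and 78.8 in WT D5 CTL and 50 and 65.3 in MR, and 60.3 in CTL and 38.7 in MR in KO line 2 at D5. The groups were apart without overlap only in WT at D5 among the pairs of 2. The mean difference was −17.4 percentile points (exact stratified permutation p = 0.0185, adjusted p = 0.16), and 9.06% of shared elements were lower at an unadjusted p under 0.05. In the gene body, Psat1 e3 ranked lower in MR in WT at D1, from 49.3 and 42.5 to 17.5 and 18.4 among the D1 elements, and overlapped in KO. At D5 in WT the percentile of its peak within its own list was 11.3 and 8.03 in CTL and 59.2 and 62.2 in MR. Those lists were of unequal length, so no change between media is read from these percentiles. Phgdh e1, at its start, was called in both libraries of each of the 4 D1 groups. Shmt2 e3, whose edge is 17 bases from the start, was called in both WT D1 CTL libraries, at 6.04 and 2.94, and in neither WT D1 MR library.

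Counted over all elements of the 10 genes, WT D1 MR gained 7 of 45 (15.6%) and lost 1. Of all elements called in at least 1 of these 4 libraries, 10.2% were gained and 1.75% lost. The 7 were Trib3 e1, e3, e4 and e6, Ddit3 e4 and e5, and Ddit4 e8. Background pileup was similar in the 4 libraries, at 3.17 and 3.22 in CTL and 3.53 and 3.17 in MR. Their lists were of unequal length, with 60173 and 45545 peaks in CTL and 69881 and 57676 in MR. WT D5 MR gained 7 of 24 (29.2%) and lost 0, where 27.9% and 0.494% of all elements did so. The 7 were Asns e1, Chac1 e4, e5 and e7, Sesn2 e2, Trib3 e2 and Ddit4 e10, and this share is near that of the genome. The WT D5 CTL lists were 2 of the 3 shortest of the 18, with 22465 and 20847 peaks against 39538 and 39263 in MR, at a pileup of 5.29 and 5.88 against 5.17 and 5.45.

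In KO at D1, 2 of 31 elements (6.45%) were gained, both at Chac1, and 0 lost, where 0.369% and 4% of all elements did so. With the 20000 strongest peaks of every list, which makes lists equal in length, the elements gained in KO D1 MR were Asns e1, Trib3 e5 and Sesn2 e2. These were 3 of 18 (16.7%), and 1.95% of all elements were gained in that comparison. The same lists gave 0 of 20 gained in WT at D1, against 7.77%, and 2 lost, Ddit4 e6 and Psat1 e3, against 6.77%. In WT at D5 they gave 1 of 14 gained, Sesn2 e2, against 8.22%, and 1 lost, Ddit4 e6, against 7.08%. None was lost in KO at D1, against 1.87%.

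The restriction effect on shared ranks was not shown to differ between KO and WT. The exact permutation test of that interaction passed 0 of the 9 elements, and 0% of 11144. It permuted genotype within day and medium, so a genotype difference shared by both media also entered its p-values. With 324 arrangements the smallest possible p was 0.00309, and an adjusted p of 0.05 would need 6.17% of all features there. An interaction at a few elements could thus not pass. At an unadjusted p under 0.05 there was 1 of 9, Trib3 e7 (exact permutation p = 0.0432, adjusted p = 0.841), against 5.84% of all shared elements. At the Trib3 start the interaction was 16.5 percentile points (exact permutation p = 0.272, adjusted p = 0.979).

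Setd2 knockout went with a lower rank at the starts of Trib3 and Psat1 and with a higher rank of an element upstream of Sesn2. These 3 of the 9 shared elements passed the genotype test, and 22.2% of all shared elements did, 11.2% higher and 11% lower in KO. A share of 3 of 9 says nothing particular of these genes, and none of the 3 passed without KO at D5. At Trib3 e5 the difference of KO from WT was −14.4 percentile points over the 5 conditions, lower in 5 of 5 (exact stratified permutation, adjusted p = 0.0436). Its shared ranks at D0 were 7.43 and 33.3 in WT and 12.4 and 7.75 in KO, and the D1 and D5 values are given above. In D1 CTL and in D5 CTL and MR every KO value was below both WT values, while at D0 and in D1 MR the genotypes overlapped.

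At Psat1 e2 the difference was −17.2 percentile points, also lower in 5 of 5 conditions (exact stratified permutation, adjusted p = 0.03). At D0 the ranks overlapped, with 74.3 and 51.2 in WT and 64.5 and 53.5 in KO. In all 4 later conditions every KO value was below both WT values. Median ranks of chromosome 19, which carries Psat1, moved by −4.09 in KO line 1 and 1.39 in line 2 relative to WT. With each rank taken relative to the median of its chromosome the Psat1 difference was −17.2, and the Trib3 difference was −15.3.

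Sesn2 e1 lies 4946 bases before the start (chr4:132515402-132515797). Its shared ranks at D0 were 32.3 and 41.1 in WT and 59.2 and 48.6 in KO. They were 54.3 and 60.6 in WT and 72.9 and 49.2 in KO in D1 CTL, and 50.3 and 53.5 in WT and 82.2 and 81.8 in KO in D1 MR. At D5 they were 21.7 and 50.3 in WT CTL, 80.4 and 59.9 in WT MR, and 85.1 and 88 in KO line 2 in CTL and MR. Only in D1 CTL did the genotypes overlap. KO was higher by 23.6 percentile points, in 5 of 5 conditions (exact stratified permutation, adjusted p = 0.03). Chromosome 4 medians were 5.53 higher in KO line 1 and −0.256 in line 2, and relative to its chromosome the element was 22.6 higher. The start of Sesn2, e3, differed by 0.369 (exact stratified permutation, adjusted p = 0.976).

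These genotype calls rest on few libraries, and muscle markers moved with genotype as well: 6 of the 10 muscle genes had fewer elements in KO by the same test, and Myog had a called gene end in all 8 WT libraries of D1 and D5 and in no KO library. Their part in these results was not tested. All KO libraries come from the same 2 lines, whose libraries deviated together (correlations of 0.357 to 0.542), while the permutation treats them as independent. The 5 conditions are therefore not independent, the genotype p-values here and below may be too small, and no test with the line as a block was run for genotype. Without KO at D5 none of the 3 elements passed in the 16 remaining libraries, with differences of −10.9 at Trib3 e5 (adjusted p = 0.305), 18 at Sesn2 e1 (adjusted p = 0.128) and −12.3 at Psat1 e2 (adjusted p = 0.229) in the same exact permutation test. Leaving out any 1 library kept all 3 directions, while the call was lost in 16 of 18 such fits at Trib3, 10 at Psat1 and 6 at Sesn2. Ranked by fold enrichment, Sesn2 e1 alone passed.

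**Figure D4:**
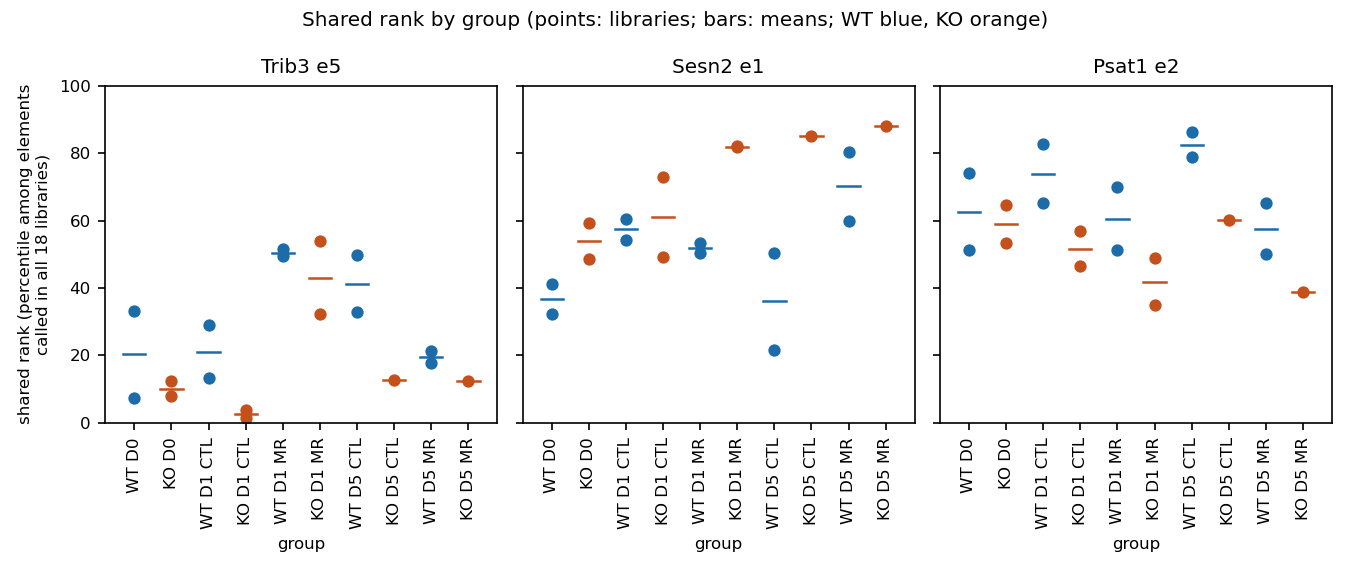
Points are the shared ranks of the start of Trib3 (e5), the upstream element of Sesn2 (e1) and the start of Psat1 (e2) in each library, as percentiles among elements called in all 18 libraries, and bars are group means. WT is blue and KO orange, with 1 KO library per medium at D5. The KO means are lower than the WT means in 5 of 5 conditions for Trib3 e5 and Psat1 e2 and higher in 5 of 5 for Sesn2 e1.

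By calls, 0 of 9 testable elements passed the genotype test, against 11.5% of 19646 in the genome, and 7 of the 9 were under an unadjusted p of 0.05, against 47.3%. The nearest were Ddit4 e3, Ddit4 e9, Chac1 e4 and Shmt2 e5, each with an adjusted p of 0.0504 by the exact stratified permutation test. Ddit4 e3 and Shmt2 e5 had the same pattern, a peak in all 6 WT libraries of D0 and D1 and in no KO library. At Shmt2 e5 the WT values of −log10 q were 4.29 and 5.67 at D0, 9.61 and 7.79 in D1 CTL, and 11.5 and 7.22 in D1 MR. Ddit4 e9 went the other way, called in 8 of 8 KO libraries and in 3 of 10 WT libraries. Chac1 e4 was called in 8 of 10 WT libraries and in KO in the 2 D1 MR libraries alone. Ddit3 e3 was called in all 4 KO D1 libraries, at a −log10 q of 8.88 and 3.21 in CTL and 6.72 and 5.39 in MR, and in no WT D1 library.

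The number of elements around Shmt2, the mitochondrial serine hydroxymethyltransferase, differed by −2.4 in KO (exact stratified permutation, adjusted p = 0.0401), and it was the only 1 of the 6 testable genes to pass, against 8.08% of genes lower. At D0 its numbers were 4 and 5 in WT and 5 and 1 in KO. They were 7 and 8 in WT and 3 and 4 in KO in D1 CTL, 6 and 6 in WT and 3 and 1 in KO in D1 MR, and 2, 2, 2 and 3 in WT at D5 against 1 and 1 in KO line 2. KO line 1 at D0 was the exception and reached the WT level. The call was lost when any of 13 of the 18 libraries was left out, with adjusted p up to 0.0952 in the same exact permutation test, and within 5 kb (−1.6, adjusted p = 0.0524). Ddit3, Ddit4 and Shmt2 lie on chromosome 10, whose median shared rank differed from WT by −6.76 in line 1 and −11.1 in line 2. Its part in the Shmt2 number was not tested.

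In groups of 2, KO lost 3 of 33 elements of these genes at D0 (9.09%, against 5.36% of all elements), 7 of 36 in D1 CTL (19.4%, against 6.45%) and 8 of 41 in D1 MR (19.5%, against 17.7%). It gained 1 in each, Ddit4 e9 at D0 and Ddit3 e3 at D1 in both media, where 2.51%, 5.41% and 1.61% of all elements were gained. Ddit4 e3 and Shmt2 e5 were among the lost in all 3 comparisons, and Ddit4 e2, Shmt2 e1 and Shmt2 e7 in both at D1. The D1 comparisons of KO and WT do not share libraries with each other, whereas each shares its libraries with the restriction comparisons above.

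By D5 the elements around 5 of the 7 testable genes had become fewer, and this was the common course of the genome. From D1 to D5 the number changed by −3.12 at Shmt2, −3 at Ddit4, −1.75 at both Chac1 and Phgdh, and −1.25 at Ddit3. Adjusted p-values of the exact stratified permutation test ran from 0.0233 at Phgdh to 0.0394 at Ddit3, and 59.1% of 10359 testable genes were lower, so a share of 5 of 7 says nothing particular of these genes. Trib3 had a difference of −1.62 (adjusted p = 0.105) and Sesn2 of −0.375 (adjusted p = 0.26) in the same exact permutation test. Ddit4 had 6 and 7 elements in WT D1 CTL and 8 and 7 in MR, against 2 and 2 in WT D5 CTL and 3 and 3 in MR. Chac1 had 5 and 3 in WT D1 MR and 4 and 4 in WT D5 MR, and was lower at D5 in the other 3 strata. With replicate numbers and lines as blocks, Ddit4 and Phgdh alone passed. Under the 20000 strongest peaks of each list 0 of these genes passed.

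Of the 7 testable genes Phgdh, the first enzyme of serine synthesis, had the smallest p. Its start element e1 was called in 11 of 12 libraries of D0 and D1 and, at D5, in WT MR replicate 1 alone. The intragenic element e2 was called in 10 libraries of D0 and D1 and in none at D5. Each of the 2 differed by −0.875 in the share of libraries called (exact stratified permutation p = 0.00926, adjusted p = 0.0724). By calls, 0 of 5 testable elements passed, as did 0% of 14311 in the genome, where 50.1% were under an unadjusted p of 0.05. Shared ranks passed for 0 of 9 elements, against 6.37%, and 3 of 9 were under an unadjusted p of 0.05, against 27.3%. The starts of Ddit3, Ddit4 and Sesn2 ranked higher at D5 in 4 of 4 strata, by 21.8, 7 and 16.1 percentile points (exact stratified permutation p = 0.0494, 0.0401 and 0.0247, adjusted p = 0.181, 0.16 and 0.123).

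In groups of 2, WT CTL lost 14 of 34 elements from D1 to D5 (41.2%, against 32.9% of all) and WT MR lost 12 of 41 (29.3%, against 21.9%), and neither gained any, against 0.409% and 1.69% of all. The Asns start and Sesn2 e2 were among the 14 lost in CTL and were not lost in MR. From D0 to D1 in CTL, WT gained Ddit4 e2, Trib3 e2, Shmt2 e3 and Shmt2 e7, 4 of 34 (11.8%, against 7.44%), and KO gained Ddit3 e3, 1 of 30 (3.33%, against 1.91%). Neither lost any, where 2.63% and 0.353% of all elements were lost.

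**Figure D5:**
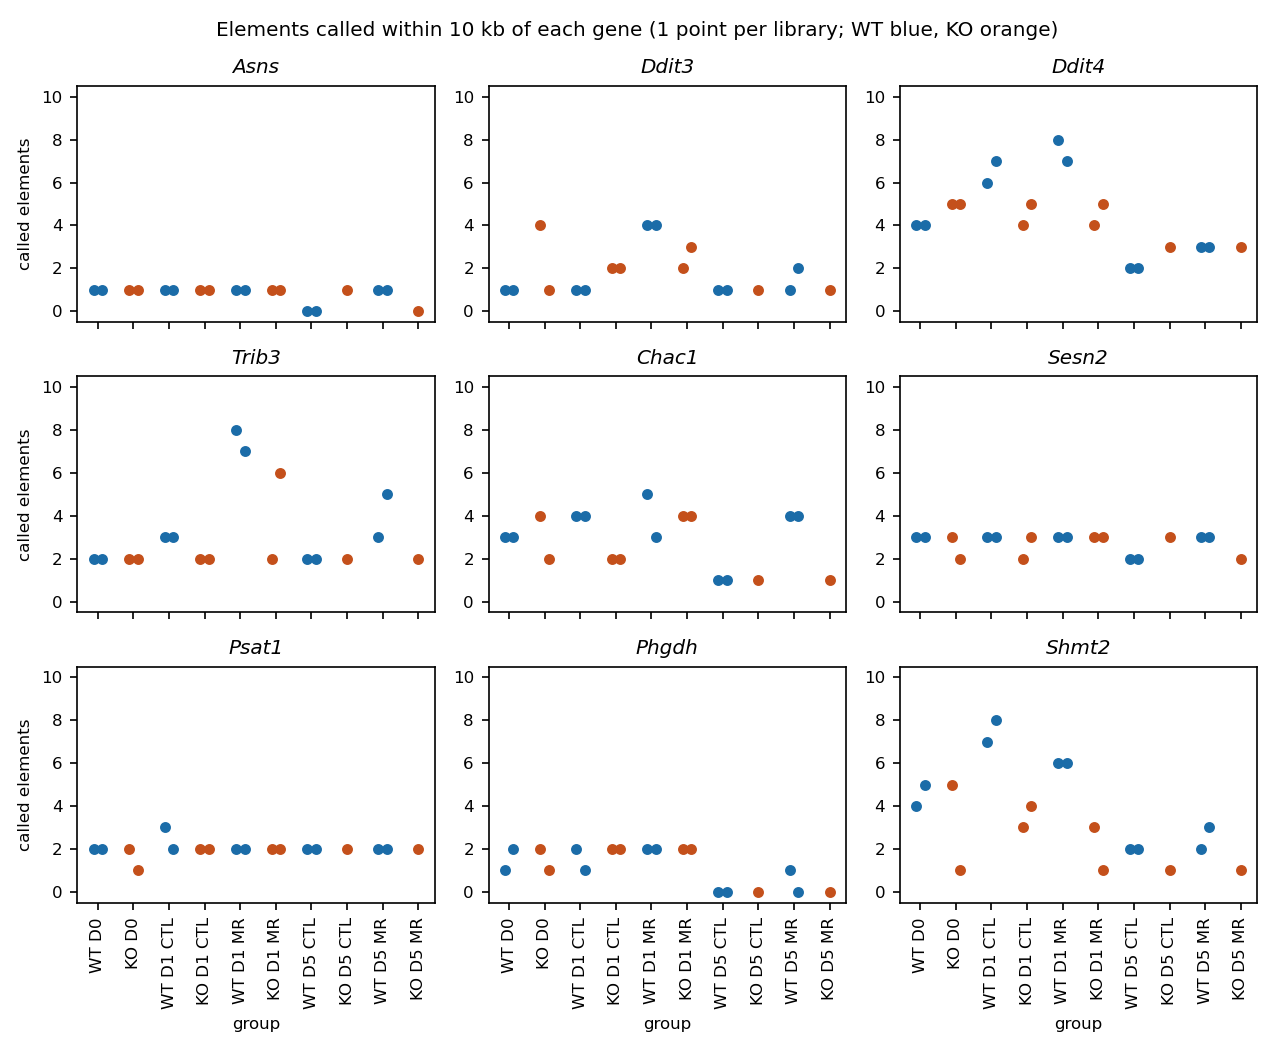
Each panel is 1 gene and each point the number of elements called within 10 kb in 1 of the 18 libraries of usual depth, by group (WT blue, KO orange). Trib3 has 8 and 7 elements in WT D1 MR, and Ddit4 and Phgdh have fewer elements at D5 than at D1 in each genotype and medium.

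The wider pathway was described with 62 further genes in 8 lists, covering the eIF2alpha kinases, eIF2 and its phosphatase, stress transcription factors, secreted and survival factors, serine, glycine and folate enzymes, other amino acid enzymes, amino acid carriers and aminoacyl-tRNA synthetases. Of these, 61 had an element within 10 kb, and 45 had a gene end called in all 18 libraries. Gldc, Pycr1, Slc7a11, Slc7a3 and Eprs were never called at a gene end. Under restriction 0 of 28 testable genes passed, with a median difference of 0.125 elements, the same as over all protein-coding genes. At an unadjusted p under 0.05 there were 4, against 2.25% of all testable genes, all higher: Slc3a2, a subunit of amino acid exchangers, the synthetase genes Mars1 and Aars, and Vldlr. In KO the synthetase gene Wars had a difference of −3.8 elements (exact stratified permutation, adjusted p = 0.0265), 1 of 45 testable genes, against 10.3% of all genes passing and 8.08% lower.

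From D1 to D5, 24 of 44 testable pathway genes were lower and 0 higher, against 59.1% lower over all genes. Ordered by p and then by name, the 10 named were the synthetase genes Mars1 and Wars, the carriers Slc38a2, Slc6a9 and Slc7a5, the autophagy receptor gene Sqstm1, the transcription factor gene Atf5, the folate enzyme gene Mthfd1l, Stc2 and Herpud1, with changes from −1.25 at Herpud1 to −4.38 at Mthfd1l. Herpud1 was tied in p with Psph, Slc1a5, Slc3a2, Slc7a1 and Vegfa and stands here by its name alone. The genes whose gene-end calls were most like those of Asns were Cth, Gdf15 and Slc3a2, each with the same call in 16 of the 18 libraries. Gdf15 and Slc3a2 were absent from 1 of the 2 WT D5 CTL libraries, and Cth from KO line 2 in D5 MR. A gene end called in every library scores 15 on this measure, so the likeness is weak.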

How the data were processed

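ATAC-seq peak lists of 20 libraries were analysed, as deposited. The files hold broad peaks with a score, a fold enrichment (a ratio), and −log10 p-value and −log10 q-value columns, all computed by the authors and deposited per library. The build is GRCm38, per the submitters' processing notes, and the aligner and peak caller are not given in the sources used here. The read depth is not in the lists. Background pileup was computed from the commonest pair of fold enrichment and −log10 p-value in a list, with 1 solution in each of the 20 lists. The computation assumes a Poisson p-value and a fold enrichment with 1 added to both pileup and background. Depth limits which weak peaks a list can hold.

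All 787806 peaks were merged where they shared at least 1 base. Genes and promoter sequences were taken from RefSeq tables of GRCm38.p6. Python 3.11.15 was used with numpy 2.4.6, scipy 1.17.1, pandas 2.3.3 and matplotlib 3.10.9. Groups follow the genotype, day and medium given in the labels. Differences were averaged over strata, with labels permuted exactly within strata, for restriction (4 strata), genotype (5), day (4) and their interaction, and adjusted over all testable features. The procedure was tested on simulated data. The 2 shallow libraries of KO line 1 at D5 were left out. KO numbers are lines and pair the samples (correlations of deviations 0.357 to 0.542 over 3 pairs); WT numbers do not (−0.0511 to 0.12 over 10 pairs).

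All 10 genes were named, with values for elements near their ends, for those that passed a test and for those separating 2 groups, and, of the pathway, up to 10 genes that passed per comparison. The genes and lists were chosen with earlier results of these data known. Alternatives were other peak thresholds, list lengths, windows, overlaps, rank measures, library sets and the replicate block. The result of 1 marker gene is not reported here.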

Additional observations from a re-analysis of the deposited data

Results flagged for a closer look

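Several elements moved one way in one setting and the opposite way in another, with no overlap of shared ranks between libraries in either. None of these differences was tested, and such opposite moves are common: 11.3% of shared elements had them between D1 and D5 under restriction in WT, 4.1% between WT and KO at D1, and 10% between CTL and MR in the change from D1 to D5 in WT.

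In WT, the restriction effect on the shared rank of the Trib3 start (e5) was 29.4 percentile points at D1 and −21.9 at D5, a difference of −51.4. Seen as the change from D1 to D5, the same libraries gave 20.2 in CTL and −31.1 in MR, again a difference of −51.4. The upstream element Sesn2 e1 went the other way, with −5.57 at D1 and 34.2 at D5, a difference of 39.7. From D1 to D5 it changed by −21.5 in CTL and 18.3 in MR, a difference of 39.7 from the same libraries. The start of Sesn2 (e3) had −2.98 at D1 and 16.8 at D5, a difference of 19.7.

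At D1 the restriction effect on Sesn2 e1 was −5.57 in WT and 20.9 in KO, a difference of 26.5. Ranked among the 23024 elements of D1, however, the WT media overlapped for Sesn2 e1, at 71.4 and 77.2 in CTL and 69.8 and 72.9 in MR, with a difference of −2.95, and also for Sesn2 e3.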

How the results depend on the processing

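The sign of a difference was followed only for selected results in selected contrasts. These were shared ranks of Trib3 e5, Sesn2 e1 and Psat1 e2, and element numbers of Trib3, Chac1, Shmt2, Ddit3, Ddit4 and Phgdh. None of these changed sign under the alternatives run. The signs of the other tested differences were not followed. Of the summary counts, 39 of 50 kept their level with 1 choice changed, and a count that stayed at 0 was taken as kept. In the main setting a few features could not pass for restriction or interaction. Counts of 0 that stayed at 0 there do not show stability. The exceptions to the 39 follow, and the cause was not tested unless the setting itself gives fewer libraries or genes. The share of all features that passed was not computed under these settings. These counts are therefore not set against the genome and show nothing particular of these genes. With all 20 libraries, element calls passed for 5 elements by day and 3 by genotype in place of 0, and element numbers by genotype for 2 genes in place of 1. With the 20000 strongest peaks, calls by genotype passed for 1 element (Shmt2 e2) and element numbers by day for 0 genes in place of 5. Ranks by genotype passed for 0 elements without KO at D5 and for 1 by fold enrichment, in place of 3. Requiring peaks to cover 50% of an element left 2 genes by day and 0 by genotype, and a 5 kb window left 0 genes by genotype. With the replicate block, 2 genes passed by day (Ddit4 and Phgdh), and the block changed no other call count, with 0 passing for restriction; WT numbers share only a number. Leaving out 1 library at a time gave 0 to 3 element calls by day, 0 to 4 by genotype, 0 to 2 ranks by genotype, 3 to 5 element numbers by day and 0 to 1 by genotype, and 0 in every restriction, interaction and day rank count. Leave-outs of the KO D5 libraries were not run for the interaction, since no KO library would remain there. The elements gained and lost in groups of 2 depended on the list: WT D1 MR went from 7 gained and 1 lost to 0 and 2 with the 20000 strongest peaks, and KO D1 MR from 2 and 0 to 1 and 2 with a −log10 q of at least 5.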
